A study of Mus musculus with 4 samples.

Results

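Open chromatin was examined at 9 genes that encode transcription factors of the early nervous system and the neural crest: Sox1, Pax6, Pax3, Pax7, Otx2, Zic1, Zic2, Neurog2 and Olig2. The genes were taken by name, and every ATAC-seq peak whose interval overlapped a gene body or the 20 kb on either side of it was assigned to that gene. Those 9 windows, out of 21887 protein-coding genes in the annotation, contained between 126 and 151 peaks: wt replicate 1 had 130, wt replicate 2 had 151, Hox-/- replicate 1 had 126 and Hox-/- replicate 2 had 131. Below, 4 values in a row follow this order of libraries. Merging overlapping peaks of the 4 libraries gave 208211 regions in the genome, of which 123 lay in the 9 windows.

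ATAC-seq uses a transposase that cuts and tags accessible DNA, so that promoters and enhancers free of nucleosomes appear as peaks. The cells were mouse embryonic stem (mES) cells of genotype wt or Hox-/-, the latter lacking all Hox function according to the series title, and each genotype had 2 libraries. Both genotypes were grown in the same medium, with 10% FBS, 100 ng/ml mouse LIF, 3 µM of the GSK-3 inhibitor CHIR99021 and 1 µM of the MEK1/2 inhibitor PD0325901. Libraries were amplified for 12 PCR cycles. The labels do not say whether the libraries of a genotype came from separate cultures or clones, so the spread between them may be technical.

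The neural plate forms from ectoderm when BMP and Nodal signals are kept low, and the neural crest arises at its border under BMP, WNT and FGF signals. SOXB1 factors such as Sox1 maintain neural progenitors, Otx2 specifies the forebrain and midbrain and also acts as pluripotent cells leave the naive state, and Zic1 and Zic2 are zinc finger factors of the neural plate and its border. Pax6 patterns the forebrain, eye and ventral neural tube, while Pax3 and Pax7 act in the dorsal neural tube, neural crest and muscle progenitors. Neurog2 and Olig2 are basic helix-loop-helix factors, of neuronal commitment and of motor neuron and oligodendrocyte progenitors. In embryonic stem cells many such developmental genes are held silent by Polycomb complexes at CpG-rich promoters.

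The whole lists ran to 213705, 216795, 191704 and 200214 peaks. They give no read counts, so depth is unknown, and peaks were compared by their rank within a library, where rank 1 is the peak with the highest −log10 p. As a check of the labels, peaks within 1 kb of a gene end were counted at the 39 Hox genes: 31 genes had one in either wt library, and 3 genes in either Hox-/- library. Of 12 pluripotency genes, 11 had a peak within 1 kb of a start in all 4 libraries and 8 had one among the 50000 strongest peaks of every library; Dppa3 had none at its start. Fibroblast or feeder genes had start peaks in all 4 libraries at 6 of 9 genes, and at 1 of 9 the peak was among the 50000 strongest in every library.

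The 250 bases before the start of 4 of the genes are shown because the windows of 3 of them overlapped a peak in all 4 libraries and that of the fourth in none. They are RefSeq sequences of GRCm38.p6, printed 5′ to 3′ on the strand of the gene. Capitals mark matches on either strand to any of the 8 short motifs that are counted in the next paragraph; the matches in these windows do not overlap.
Sox1: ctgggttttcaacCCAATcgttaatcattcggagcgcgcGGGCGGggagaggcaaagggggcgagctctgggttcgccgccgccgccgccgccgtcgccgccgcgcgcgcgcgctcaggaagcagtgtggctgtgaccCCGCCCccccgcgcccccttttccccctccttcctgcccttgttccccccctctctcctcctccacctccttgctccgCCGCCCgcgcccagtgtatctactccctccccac
Pax6: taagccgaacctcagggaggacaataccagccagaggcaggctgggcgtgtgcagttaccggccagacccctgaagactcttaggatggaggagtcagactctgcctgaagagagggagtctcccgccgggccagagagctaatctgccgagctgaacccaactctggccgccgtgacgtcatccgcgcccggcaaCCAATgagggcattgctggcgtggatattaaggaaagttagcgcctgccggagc
Otx2: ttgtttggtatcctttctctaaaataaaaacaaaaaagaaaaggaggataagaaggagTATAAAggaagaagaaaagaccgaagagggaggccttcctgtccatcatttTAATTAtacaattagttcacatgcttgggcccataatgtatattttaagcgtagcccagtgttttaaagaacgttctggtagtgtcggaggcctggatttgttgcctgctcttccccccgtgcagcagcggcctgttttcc
Olig2: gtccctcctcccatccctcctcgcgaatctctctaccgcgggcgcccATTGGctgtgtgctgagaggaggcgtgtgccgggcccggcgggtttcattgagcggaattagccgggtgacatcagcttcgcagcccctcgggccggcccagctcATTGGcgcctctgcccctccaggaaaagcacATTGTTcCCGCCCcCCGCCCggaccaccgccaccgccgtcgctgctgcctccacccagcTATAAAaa
The Sox1 sequence is chr8:12395269-12395518 on the plus strand, with 71.2% GC, 29 CpG dinucleotides and a CpG observed over expected ratio of 0.987. The Pax6 sequence, chr2:105668646-105668895 on the plus strand, lies before the first of its annotated starts and has 60.8% GC, 15 CpG and a ratio of 0.652. For Olig2 the sequence is chr16:91225300-91225549 on the plus strand, with 66.8% GC, 22 CpG and a ratio of 0.821. The Otx2 sequence, chr14:48667645-48667894 on the minus strand, lies before the outermost of its annotated starts and has 42.0% GC, 6 CpG and a ratio of 0.550. The Sox1, Pax6 and Olig2 windows overlapped a peak in all 4 libraries, and the Otx2 window in 0 of 4. CpG content did not separate windows with and without a peak: the windows before the second Pax6 start and before an internal Otx2 start, not printed, had CpG ratios of 1.06 and 1.03 and overlapped a peak in 0 libraries.

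The promoter table matched 7 of the 9 genes, with 11 such windows. Of these, 6 overlapped a peak in all 4 libraries and 4 in none, against 47.3% and 46.7% of all 32851 windows of the table. The median GC content was 58.0% in the 11 windows and 52.4% in all, and the median CpG ratio was 0.713 against 0.374. The CCAAT motif was found in 5 of the 11 windows (33.8% of all windows) and the GC box GGGCGG in 5 (32.7%). TATAAA was found in 2 (12.4%) and AACAAT, a SOX-type motif, in 2 (9.42%). TAATTA, a core of homeodomain sites, was found in 2 (4.84%), both before starts of the same gene, Otx2. CACGTG was found in 1 window (6.02% of all), and CAGCTG (13.0% of all) and the octamer ATGCAAAT (1.60% of all) in 0. These matches describe letters in the window and not factor binding.

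All 9 genes had a peak with its summit within 1 kb of a start in all 4 libraries, which held for 67.2% of protein-coding genes. Peaks were placed at starts and gene ends by their summits throughout, while distances of regions from a start are those of the nearest edge. For Pax3 and Zic2 either gene end was used, and for the others the starts of the promoter table. None of the 9 genes had a start peak among the 50000 strongest in all 4 libraries, against 48.0% of protein-coding genes, 8 of 12 pluripotency genes and 18 of 40 other neural and neural crest genes. Olig2 had one in 3 of the 4 libraries, Sox1 in 2, Zic2 in 1 and the other 6 genes in none. The contrast depended on the bound of 50000, which was chosen after seeing the data: with the 100000 strongest peaks the count was 5 of 9, against 59.0% of protein-coding genes. With summits within 2.5 kb and the bound of 50000 it was 1 of 9, against 52.8% of protein-coding genes. Within 1 kb and with the bound of 50000, mesoderm and primitive streak genes gave 1 of 12 and endoderm genes 3 of 12. The median rank of the best start peak of the 9 genes was 86484, 64744, 82384 and 81560, while over all protein-coding genes with a start peak it lay between 19223 and 20540.

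**Figure D1:**
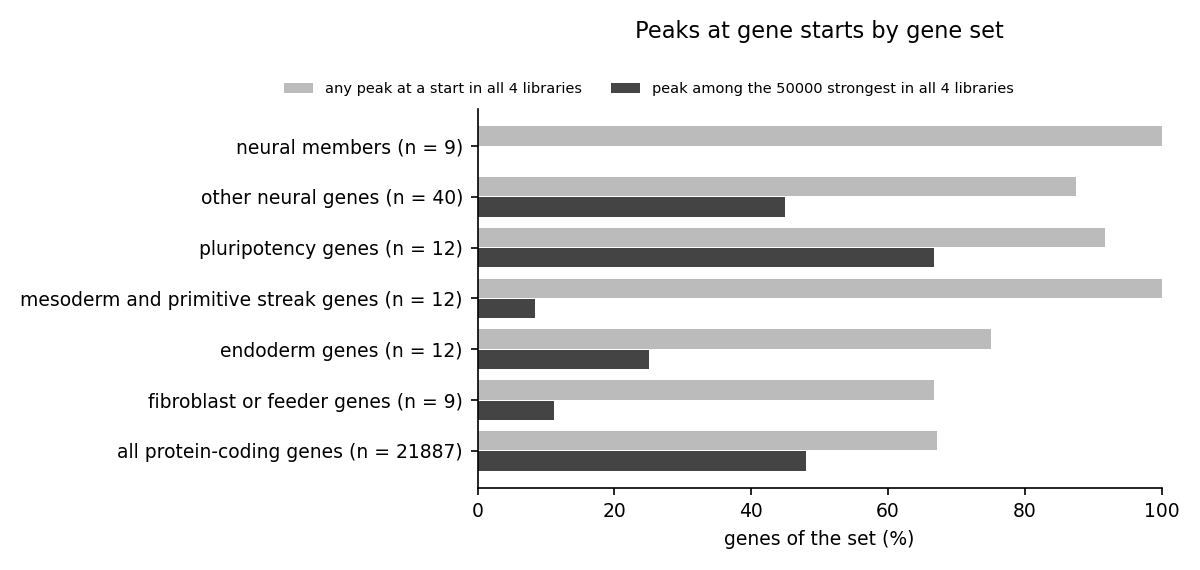
Percent of genes in each list with any peak within 1 kb of a start in all 4 libraries (grey bars) and with such a peak among the 50000 strongest (dark bars); n is the number of genes, and the top row holds the 9 genes. A summit at a start was present at 9 of 9, and 0 of 9 had one among the 50000 strongest peaks of every library; with the 100000 strongest, not drawn, the count was 5 of 9 (59.0% of all genes).

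The strongest peak of the window usually lay elsewhere. At 8 of the 9 genes it lay away from every start in all 4 libraries, and at 1 gene, Olig2, it lay at the start in all 4. Over all protein-coding genes these shares were 55.8% and 23.7%. The strongest peak lay away from every start in all libraries at 11 of 12 mesoderm and primitive streak genes, 11 of 12 endoderm genes and 28 of 40 other neural genes, so this feature was not particular to the 9 genes. Of the 14 regions that were among the 50000 strongest peaks in all 4 libraries, 7 overlapped the gene body, 0 had their strongest summit within 1 kb of a start, and 7 of the 9 genes had at least 1.

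**Figure D2:**
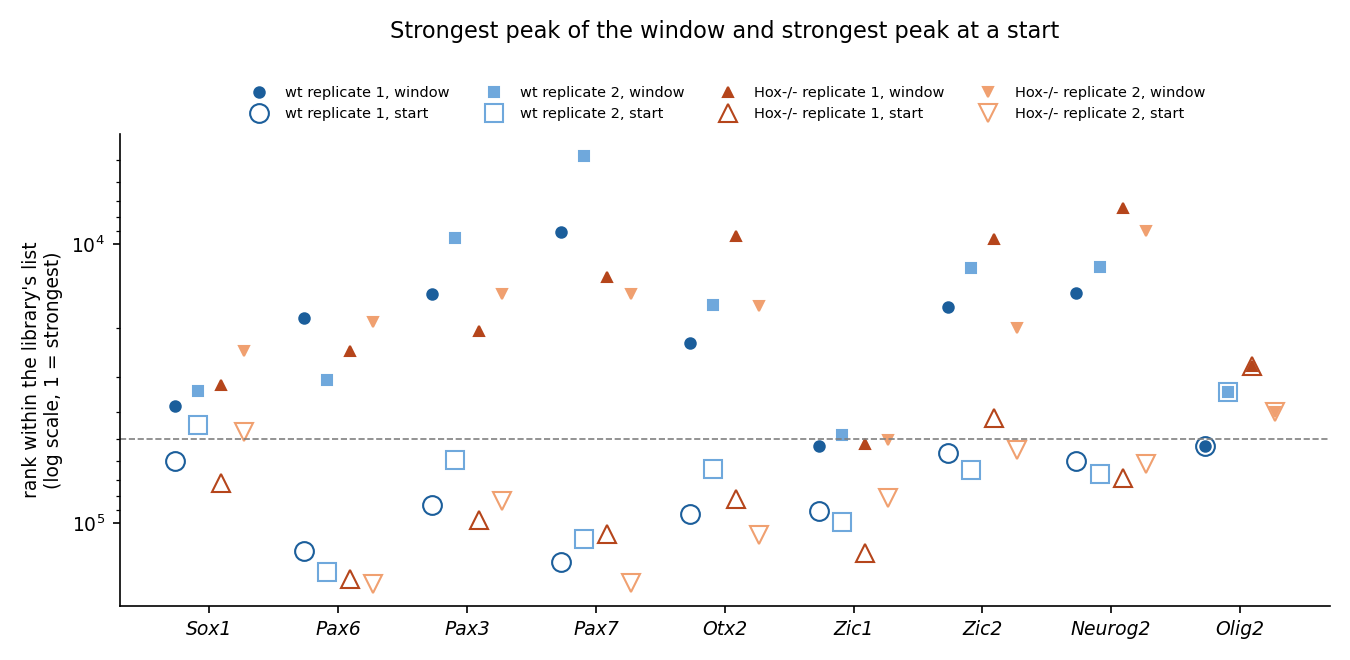
Rank of the best peak in the window (filled symbols) and of the best peak at a start (open symbols) for each gene and library, on an inverted log axis where rank 1 is the strongest; the dashed line is rank 50000. The start peaks lie below the window's best peaks except at Olig2, where both are the same peak.

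Sox1 lies on chromosome 8 from 12395519 to 12399555 within the long noncoding gene Sox1ot. Its window held 11 and 16 peaks in wt and 11 and 11 in Hox-/-, of which 2 in every library were at a gene end. The start peak ranked 59766 and 44418 in wt and 71709 and 47151 in Hox-/-, so that the genotypes overlapped. A region 3515 bp upstream of the start (12391576 to 12392004) ranked 37988, 35196, 46681 and 24111, and one 5194 bp downstream of the start, beyond the gene (12400713 to 12401348), ranked 39162, 33667, 32009 and 24220. The downstream region ranked better in both Hox-/- libraries than in both wt libraries, with a shift (on the log2 rank scale defined below) of 0.36, against a replicate shift of 0.37 within Hox-/-.

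Otx2 lies on chromosome 14 from 48656781 to 48667644 on the minus strand. No library had a peak summit within 1 kb of either outer gene end, and the start peaks belonged to internal starts, with best ranks of 92656 and 64099 in wt and 82384 and 110589 in Hox-/-. Its window held 15 and 16 peaks in wt and 11 and 14 in Hox-/-. The strongest region, from 48654293 to 48655688 just beyond the end of the gene, ranked 22543 and 16586 in wt and 9382 and 16613 in Hox-/-. Hox-/- replicate 2 fell beside wt replicate 2, and the genotypes overlapped.

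Pax6 lies on chromosome 2 from 105668896 to 105698410, with Elp4 and Pax6os1 overlapping its body. It had 15 and 18 peaks in wt and 14 and 13 in Hox-/-, most of them in the gene (8, 10, 8 and 7). Its best start peak was among the weakest of the 9 genes, at rank 126624 and 150570 in wt and 158777 and 166081 in Hox-/-. Inside the gene a region from 105691158 to 105691706 ranked 18448, 37192, 24197 and 19044, and the overlap between genotypes came from the wide spread within wt.

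Pax3 lies on chromosome 1 from 78101267 to 78197136 and Pax7 on chromosome 4 from 139737059 to 139833530, on the minus strand. Pax3 held 18 and 20 peaks in wt and 20 and 18 in Hox-/-; Pax7, with 28 to 30 peaks in each library, held the most of the 9 genes, and 16 to 18 of them lay inside the gene. The strongest Pax3 region, inside the gene from 78119848 to 78120497, ranked 15147 and 9469 in wt and 20513 and 15109 in Hox-/-, and the fold over background was 18.1, 21.5, 15.5 and 18.4. The strongest Pax7 region, inside the gene from 139767461 to 139769071, ranked 9015 and 4806 in wt and 13145 and 15101 in Hox-/-. At the Pax7 start the best ranks were 137753 and 114294 in wt and 109815 and 163883 in Hox-/-.

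Zic1 (chromosome 9, 91358058 to 91365768, minus strand) and Zic2 (chromosome 14, 122475384 to 122480328) each lie beside another Zic gene, Zic4 and Zic5. Zic1 had 14 and 15 peaks in wt and 14 and 13 in Hox-/-, and Zic2 had 13, 17, 14 and 13. The best peak of the Zic1 window lay inside Zic4, from 91384056 to 91384601, and its ranks of 53042, 48449, 52082 and 50627 were close together in all libraries. The best peak of the Zic2 window, from 122464812 to 122465901, overlapped one end of Zic5 and ranked 16835 and 12198 in wt and 9545 and 19964 in Hox-/-. These peaks can therefore belong to the neighbouring gene. Zic2 was the only gene of the 9 with 4 peaks at its ends in every library.

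Neurog2 (chromosome 3, 127632733 to 127635636) had 9 and 11 peaks in wt and 8 and 12 in Hox-/-, and Olig2 (chromosome 16, 91225550 to 91228677) had the fewest, with 7 and 8 in wt and 5 and 7 in Hox-/-. The Olig2 start peak, from 91224825 to 91225540, ranked 53080 and 33830 in wt and 27256 and 40029 in Hox-/-, with overlap between the genotypes. Neurog2 is described with the genotype comparison below.

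Relative to window length, the 9 genes had a median of 2.33 peaks per 10 kb, against 1.48 for all protein-coding genes and 3.26 for the pluripotency genes. The highest density was at Zic2, with 3.17 peaks per 10 kb and 13.0% of the window covered, and the lowest at Pax3, with 1.40 and 5.32%. Olig2 had 1.57 peaks per 10 kb and 4.20% covered.

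**Figure D3:**
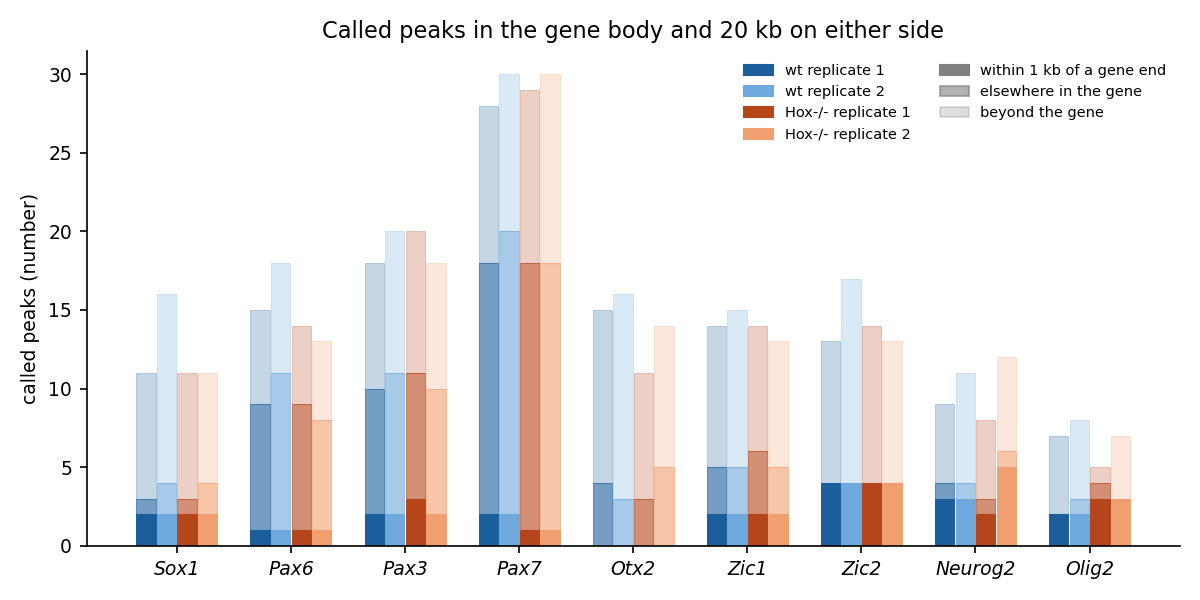
Number of called peaks in each gene body with 20 kb on either side, for the 4 libraries, split by position. Pax7 has 28 to 30 peaks in each library and Olig2 5 to 8.

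The genotype comparison asks whether the loss of Hox function moves the open chromatin of these genes in stem cells. The total of 140.5 ± 14.8 peaks in wt (SD, n = 2) and 128.5 ± 3.54 in Hox-/- (SD, n = 2) differed by -12, with a two-sided exact permutation p of 0.67 (n = 2 per genotype). With 2 libraries per genotype that test cannot go below 0.33. The Hox-/- lists were shorter as a whole: as a share of the list, the 9 windows held 0.0608% and 0.0697% of peaks in wt and 0.0657% and 0.0654% in Hox-/-, with no gap between the genotypes. Peaks at gene ends numbered 18 in both wt libraries and 18 and 20 in Hox-/-, and peaks beyond the genes 71 and 86 in wt and 65 and 68 in Hox-/-.

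Ranks were compared over the 74 regions of the 9 genes called in all 4 libraries, among 122787 such regions in the genome. The shift is the mean log2 rank in wt minus that in Hox-/-, so that a value above 0 means a better rank in Hox-/-. Shifts and calls use ranks among those 122787 regions only. The ranks printed for peaks and regions are those within the whole list of a library, so they do not reproduce a shift exactly. The median shift of the 74 regions was 0.01 and that of all regions 0.01, and the exact two-sided permutation p for that median was 0.67 (n = 2 per genotype). The median size of the shift was 0.14, beside 0.16 and 0.19 for the shifts between single replicates of wt and of Hox-/-. Over all regions these values were 0.17, 0.19 and 0.21, in the same order; a shift between means of 2 libraries has less noise than one between single libraries. Ranks did not overlap between genotypes at 32 regions, 16 higher and 16 lower in Hox-/-, which is 21.6% in each direction against 20.5% and 20.3% of all regions. A stricter call also required a shift of at least 0.5 in size and larger than both replicate shifts. It was met by 5 regions higher in Hox-/- and 4 lower (6.76% and 5.41% of the 74), against 3.39% and 3.75% of all regions. Of the 14 regions that were strong in every library, 6 were higher and 2 lower in Hox-/- (20.4% and 20.7% of all strong regions), and 3 and 1 met the stricter call (5.05% and 5.17%). The strongest Pax3 region was 1 of the 2 lower, by a narrow margin. Among the 122787 regions it ranked 14518 in wt replicate 1 and 14556 in Hox-/- replicate 2. Its whole-list ranks, given above, overlap between the genotypes.

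**Figure D4:**
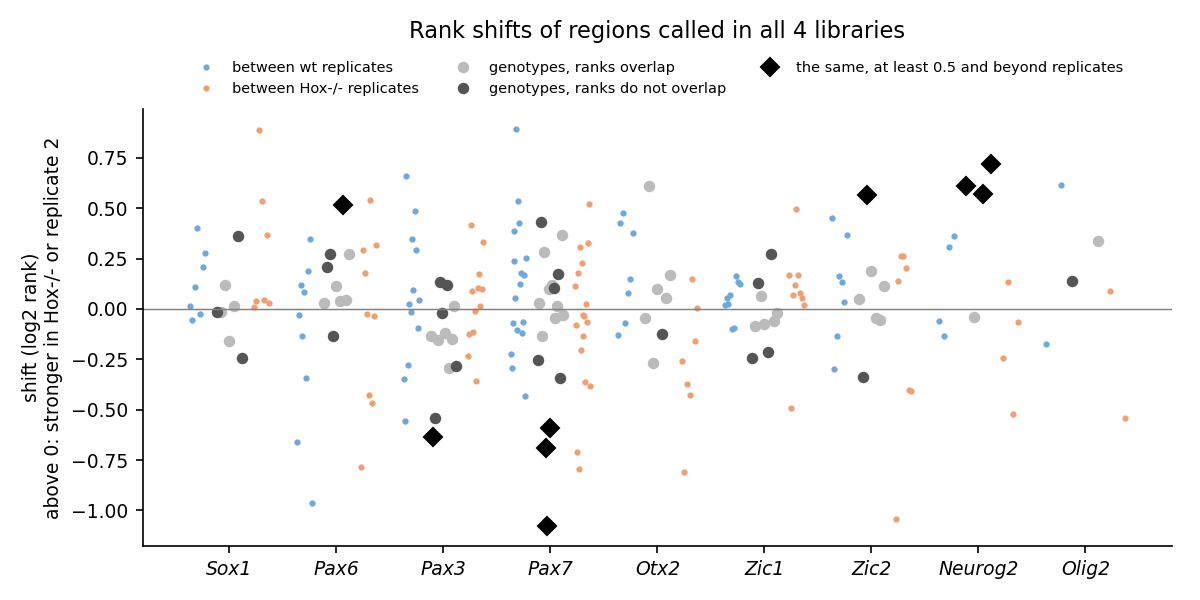
Shift on the log2 rank scale of each of the 74 regions called in all 4 libraries, by gene. Large grey and dark points are genotype shifts with and without overlapping ranks, diamonds meet the stricter call, and small points are shifts between replicates, positive where replicate 2 ranked better. Neurog2 has 3 diamonds above 0.5 and Pax7 has 3 below -0.5.

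Neurog2 had the most regions of the 9 genes that met the stricter call in the higher direction. Of its 4 regions called in all 4 libraries, 3 met the strict call, which 1.19% of genes with at least 4 such regions reached. The region 7310 bp upstream of the start, from 127625267 to 127625826, ranked 37924 and 39631 in wt and 22742 and 26939 in Hox-/-, with a shift of 0.61. The region inside the gene, 778 bp downstream of the start (127633914 to 127634992), ranked 15007 and 12046 in wt and 7440 and 10734 in Hox-/-, with a shift of 0.57. Its edge lies within 1 kb of the start, but its strongest summits, at 127634283 to 127634290, do not.

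The third region lay 6551 bp downstream of the start, beyond the gene (127639687 to 127640770), and ranked 16697 and 12872 in wt and 8606 and 8961 in Hox-/-, with a shift of 0.72. Both Hox-/- libraries ranked better than both wt libraries at all 3. The region with the best start peak, 240 bp upstream of the start (127632532 to 127632896), ranked 60037 and 66628 in wt and 69156 and 61489 in Hox-/-, with a shift of -0.04. A weaker region that spans the start (127633085 to 127633683) ranked 153786 and 211295 in wt and 170051 in Hox-/- replicate 2. It had no peak in Hox-/- replicate 1. The median shift of the gene was 0.59, against replicate medians of 0.12 in wt and -0.16 in Hox-/-, and it fell at the 99.8th percentile of the 16451 genes with at least 3 regions. That percentile is not matched for the number of regions, here 4, and Neurog2 had the largest median of the 9 genes. Leaving out Hox-/- replicate 1, the shortest list, brought the median to 0.17, over 6 regions in place of 4. The shifts of the 3 regions, in the order given, were then 0.49, 0.31 and 0.69, so that the first and the second fell under the bound of 0.5. Without wt replicate 1 the second was also under it, at 0.42. Over the 54 regions between 20 kb and 1 Mb from the gene the median was 0.02. The fold over background was 8.01 and 8.09 in wt and 9.91 and 9.40 in Hox-/- at the upstream region, and 16.4 and 18.5 against 18.6 and 19.4 at the third region. At the region inside the gene the folds overlapped between genotypes, at 11.38 and 12.95 in wt and 14.37 and 12.89 in Hox-/-.

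**Figure D5:**
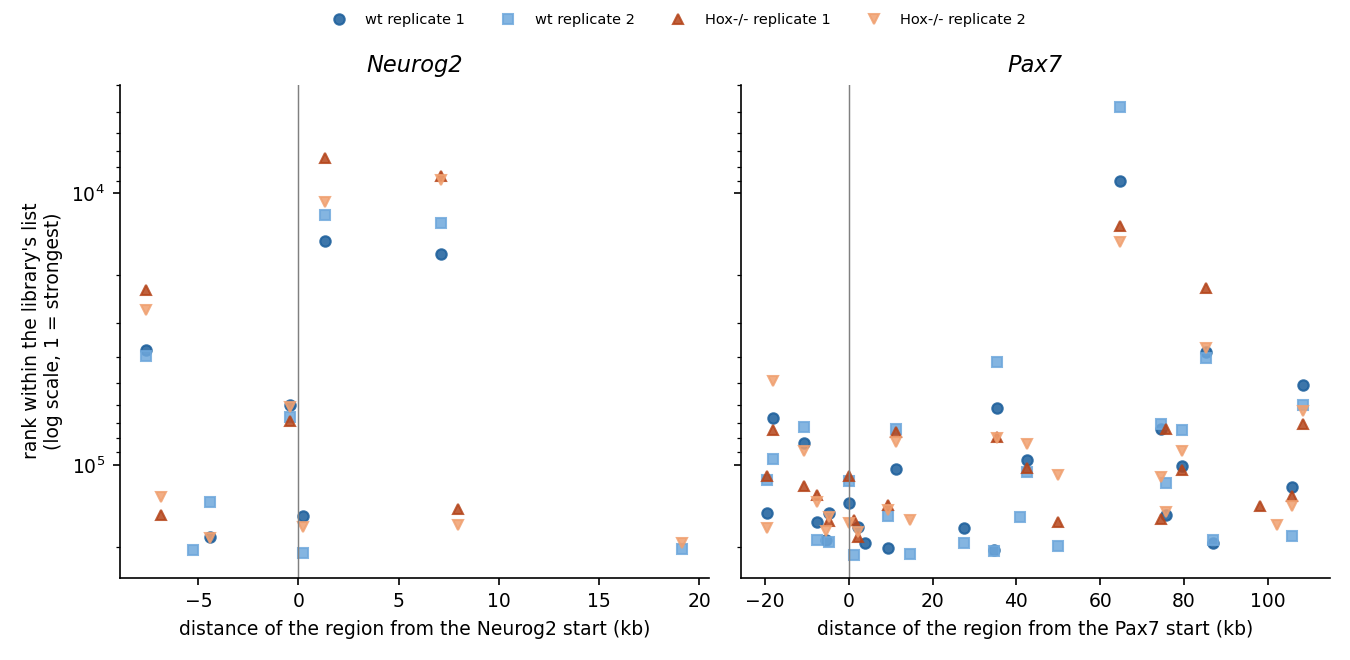
Ranks of the regions at Neurog2 and Pax7 in each library, on an inverted log axis (1 is the strongest), against distance from the gene start in kb, positive in the direction of transcription. At Neurog2 both Hox-/- libraries lie above both wt libraries at the 3 strict regions, and at Pax7 both lie below at 3 regions inside the gene.

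Pax7 had 3 regions inside the gene that met the strict call in the lower direction, which 1.01% of genes with at least 4 regions reached. That share is not matched to the 17 regions of Pax7, and a gene with more regions has more occasions to reach 3. The strongest region of the locus, given above, had a shift of -1.08, with the fold over background 14.6 and 16.8 in wt and 13.1 and 11.6 in Hox-/-. The region from 139758256 to 139758780 ranked 73818 and 70963 in wt and 158627 and 111148 in Hox-/- (shift -0.69), and the region from 139797345 to 139798011 ranked 61851 and 41700 in wt and 78987 and 79474 in Hox-/- (shift -0.59). Without wt replicate 2 the first and last of these shifts were -0.63 and -0.32. The median over all 17 Pax7 regions was 0.01, and a region from 139747269 to 139748025 was higher in Hox-/-, with ranks of 38444, 40514, 22284 and 37036.

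The remaining strict calls were single regions. At Pax3 a region 4042 bp beyond the gene (78096635 to 78097225) ranked 61482 and 95270 in wt and 125108 and 141898 in Hox-/-, a shift of -0.64 (-0.37 without wt replicate 1), and the median of the 12 Pax3 regions was -0.14. At Zic2 the region that reaches the low-coordinate end (122473809 to 122475396) ranked 52988 and 58785 in wt and 40761 and 33123 in Hox-/-, a shift of 0.56. That shift fell under the bound of 0.5 without Hox-/- replicate 2 (0.43) and ranked by fold (0.47), and was 0.495 without wt replicate 2. The strongest summits of the region lay more than 1 kb from either gene end. The best Zic2 peaks within 1 kb of an end ranked 55937 and 64744 in wt and 41942 and 54852 in Hox-/-. The region also overlaps the long noncoding gene 2610035F20Rik. At Pax6 a region 1499 bp upstream of the second start (105680274 to 105680964) ranked 116241 and 98232 in wt and 59269 and 83314 in Hox-/-, a shift of 0.52, and the gene median was 0.11. Ranked by fold, the Pax6 region had a shift of 0.24, and without Hox-/- replicate 1 one of 0.30. Without wt replicate 2 the Pax3 median was -0.04, and without Hox-/- replicate 1 the Pax6 median was also 0.30. Gene medians were larger in size than both replicate medians at 4 of the 9 genes (Pax6, Pax3, Neurog2 and Olig2), against 29.5% of protein-coding genes. The Olig2 median of 0.24 over 2 regions was 0.06 without Hox-/- replicate 1. The medians of Sox1, Pax7, Otx2, Zic1 and Zic2 lay between -0.06 and 0.06. Each of these 5 medians changed sign in at least 1 of the fits that left out a library. The Otx2 median went from 0.06 to -0.05 when Hox-/- replicate 1 was left out, and to 0.15 when Hox-/- replicate 2 was. For Zic2 the median was -0.09 without wt replicate 1 or without Hox-/- replicate 1, 0.28 without wt replicate 2 and 0.15 without Hox-/- replicate 2. That of Zic1 was 0.00063 without wt replicate 2, and that of Pax7 was 0.10 with ranks over the whole list.

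Regions with a peak in both replicates of 1 genotype and no peak at all in the other genotype were few and weak. There were 5 in wt only, of 86 regions called in both wt libraries (background 5.44%), and 2 in Hox-/- only, of 79 (background 1.95%). The wt-only regions lay at Pax7 (3), Otx2 (1) and Zic1 (1), and the Hox-/- only regions lay at Neurog2, beginning at 127626179 and 127640970. The best rank of any of these 7 was 131887 and the highest fold over background 3.70.

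Over the 40 other neural and neural crest genes, 272 regions were called in all 4 libraries, with 65 higher and 52 lower in Hox-/- (23.9% and 19.1%, against 20.5% and 20.3% of all regions) and a median shift of 0.03; 20 regions are shared with the windows of the 9 genes. The strict call was met by 8 higher and 7 lower (2.94% and 2.57%, against 3.39% and 3.75%). Start peaks in all 4 libraries were found at 35 of the 40 genes, and Six3 had none in any. Pluripotency genes had 35 regions higher and 31 lower of 153, mesoderm and primitive streak genes 19 and 14 of 78, and endoderm genes 19 and 13 of 82. Fibroblast or feeder genes had 14 higher and 6 lower of 46, and 4 and 1 by the strict call; a single gene, Pdgfrb, held 7 of the 14 and all 4 of the strict higher regions.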

How the data were processed

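ATAC-seq peak lists of 2 wt and 2 Hox-/- mES libraries were used, 1 list per library. The submitters' processing notes name cutadapt 4.8, Bowtie2 2.5.0, Picard 2.18.2, bedtools 2.30.0, MACS2 2.2.9.1, deepTools 3.5.4 and build mm10, without roles or parameters. Whether reads were shifted for the transposase is not given in the sources used here. In the deposited lists every peak carries a fold over background, a −log10 p, a −log10 q (lowest 1.30) and a score derived from the −log10 q, as the authors' peak caller wrote them. These were used only to describe and rank peaks within a list. Between 18.2% and 20.4% of lines of a list share an interval with another line and were counted separately.

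Genes are from RefSeq GRCm38.p6, whose gene table has no strand; starts come from the promoter table for 7 genes. Peaks overlapping by 1 bp or more were merged into regions, and shifts were computed from ranks over regions called in all 4 libraries. Named genes are the 9 chosen genes, their neighbours and the other listed genes. The regions named are the best of each gene, those of 1 genotype, the strict calls and some regions at starts. At some genes the region with the largest shift in 1 direction, among those without overlapping ranks, is also named. The genes, lists and rules were chosen with earlier results of these data known. The start-strength counts were chosen after seeing the data. Values of some single genes of the lists are not reported here. Statistics were tested on simulated data; Python 3.11.15, pandas 2.3.3 and numpy 2.4.6 were used.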

Additional observations from a re-analysis of the deposited data

How the results depend on the processing

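Of the alternative values of the comparisons, 57 kept the direction of a difference, whatever its size, or the size of a count within 1.5 times; 19 counts moved by more and 1 difference reversed. The difference in peak number, not scaled to the length of the lists, ranged from -22.5 to -1.5 when 1 library was left out and was -3 with the 100000 strongest peaks. Genes with a peak summit at a start fell from 9 to 0 with the 50000 strongest peaks of each library. Genes with a strong start peak rose from 0 to 1 within 2.5 kb and to 5 with the 100000 strongest peaks (52.8% and 59.0% of protein-coding genes), and ranged from 0 to 1 with 1 library left out, 1 being without wt replicate 1. The median shift ranged from -0.0109 to 0.0596 with 1 library left out and reversed to -0.0109 without Hox-/- replicate 1; the cause was not tested. Non-overlapping regions numbered 24 to 31 in each direction with 1 library left out, where fewer ranks must be ordered (33.7% to 37.2% of all regions). Regions in wt only numbered 8 with 50 kb windows, 2 with the 100000 strongest peaks and 7 to 14 with 1 library left out. The shares over all regions were 5.44%, 3.11% and 9.38% to 12.5%. Those in Hox-/- only numbered 1 and 3 to 5 in the last 2 settings (2.85% and 4.35% to 7.43% of all regions). With a replicate block, the peak number differed by -12 (pairs -4 and -20) and the median shift was 0.01. The medians of the single pairs had opposite signs, at 0.01 and -0.05. In both pairs, 18 regions were higher and 23 lower (28.4% and 27.8% of all regions). Replicate differences of the genotypes correlated at 0.004 over all regions, so the numbers were not read as pairs. Alternatives for single genes and regions were run only for the medians of the 9 genes and for the regions that met the strict call. Of these values, 90 differed by less than the spread between replicates, which is wide. Another 18 differed by more, among them the Neurog2 median without Hox-/- replicate 1. A missing peak may only reflect depth, which the lists do not give.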

Other observations

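Among the other genes of the basic helix-loop-helix family in the neural list, chosen here after their values were seen, Neurod1, which acts after Neurog2 in neuronal differentiation, had a median shift of 0.37 over 3 regions and Olig1, beside Olig2 on the chromosome, had 0.37 at 1 region. Neither was larger than the spread between replicates: the median replicate shift was -0.42 within wt at Neurod1, and the replicate shift was -0.39 within Hox-/- at Olig1. The median genotype shift was 0.09 at Neurog1 and -0.17 at Olig3.

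By the 4 log2 best ranks of the window, the gene most like each of the 9 among the 40 compared was Dlx2 for Sox1 (Euclidean distance 0.370) and Olig2 (0.677), Sox9 for Pax6 (0.497), Olig1 for Otx2 (0.653), Lhx2 for Neurog2 (0.712), Hesx1 for Pax3 (0.715) and Tfap2a for Pax7 (1.10). Zic4 and Zic5 had a distance of 0 to Zic1 and Zic2 because they share the same peak.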
